A study of Mus musculus with 16 samples.

Results

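The 10 genes described here encode opioid, corticotropin-releasing factor (CRF), neuropeptide Y and cannabinoid receptors and the enzymes that make or degrade endocannabinoids. They are Oprm1, Oprk1, Oprd1, Oprl1, Crhr1, Npy1r, Cnr1, Faah, Mgll and Dagla, picked by name as 10 of the 19999 genes in the count table. Nuclei of the medial prefrontal cortex (prelimbic and infralimbic areas) of 16 male mice aged 22 weeks were profiled by single-nucleus RNA sequencing, 1 library per mouse, with 4 mice in each of 4 groups. The question addressed is whether repeated alcohol intoxication alters transcription in a mouse model of Alzheimer's disease.

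The WT control mice were wild type and breathed air. The WT alcohol mice were wild type and went through cycles of chronic intermittent alcohol vapor. The 3xTg-AD control mice breathed air and carried mutant human forms of the amyloid precursor protein and tau, expressed from a neuronal Thy1 promoter, with a mutant presenilin knocked into its own locus. The 3xTg-AD alcohol mice had the same genotype and the same vapor treatment as WT alcohol mice. Per the paper, the mice were then tested in a water maze, and tissue was taken days after that test and after the last vapor. The alcohol contrasts thus concern a history of exposure in withdrawal, not exposure at the time of sampling. The 3xTg-AD line is on a B6;129 background, and all 16 mice received the alcohol dehydrogenase inhibitor pyrazole, given with an ethanol injection in the alcohol groups and in saline in the controls. The human transgenes have no entry among the counted mouse genes, so genotype was not checked from the counts. The labels give each sample as a mouse, and the p-values here measure the spread between mice.

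The mu (Oprm1), kappa (Oprk1), delta (Oprd1) and nociceptin (Oprl1) opioid receptors, the Y1 receptor (Npy1r) and the CB1 cannabinoid receptor (Cnr1) couple to inhibitory Gi/o proteins. CRF receptor 1 (Crhr1) couples mainly to Gs and mediates stress signals. Endocannabinoids act backwards across the synapse: Dagla makes 2-arachidonoylglycerol in the receiving neuron, Mgll hydrolyzes it, Faah hydrolyzes anandamide, and Cnr1 on the axon terminal lowers transmitter release, in cortex most densely on cholecystokinin interneurons.

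In GRCm38 coordinates (GENCODE vM21), Oprm1 spans chr10:6758506-7038198 on the plus strand, Oprk1 chr1:5588466-5606131 on the plus strand, Oprd1 chr4:132110726-132144486 on the minus strand and Oprl1 chr2:181715016-181720985 on the plus strand. Crhr1 lies at chr11:104132855-104175523 and Npy1r at chr8:66697192-66706792, both on the plus strand. Cnr1 spans chr4:33924593-33948831 on the plus strand and Faah chr4:115967145-116017926 on the minus strand. Mgll lies at chr6:88724412-88828360 on the plus strand and Dagla at chr19:10245265-10304877 on the minus strand. All 10 are protein coding, and each value below is a count for the whole gene. Oprm1 overlaps Ipcef1 and Mgll overlaps Gm26588 on the opposite strand. The sources do not say how strand was used, so whether reads in those overlaps were kept apart is not known. On its own strand Mgll also overlaps the gene models Gm44005, Gm43999 and Gm44001, which are not in the count table.

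The libraries held 4955 to 9096 nuclei and 9622031 to 17544364 unique molecular identifiers (UMIs, each 1 captured RNA molecule), 114512 nuclei in all. Nuclei were put into 21 classes from marker genes that left out the 10 members, and 33400 nuclei (29.2%) with few UMIs (median 821) stayed unnamed. A further 2997 nuclei were put in no class, 2365 of them glutamatergic and 222 GABAergic without a subclass. Of these classes, 17 had enough nuclei in enough mice to be tested, and sums over all glutamatergic and all GABAergic nuclei were added. The class built from layer 6 intratelencephalic (IT) markers is called Rxfp1-led, because 7 of its 10 markers were raised 1.5-fold but none was among the genes that led it. Of those leading genes, Rxfp1 was a listed marker of the L6b class and Galnt14 of the L5 IT class. It was also the least separated class, with 25.9% of its nuclei within 10 log units of the next class. In the L5 IT class only 3 of 8 markers were raised that much, 2 of them among its leading genes, so its name rests on few markers. WT control mouse 27 stood apart, with 1148 of the 1452 nuclei of the Meis2 class, which made up 74.9% of its GABAergic nuclei. WT control mice 26 and 27 and 3xTg-AD control mouse 12 stood apart too, with 17914 to 29047 CPM (counts scaled so that every library or class sum has the same total) of the ribosomal RNA-associated transcript Gm42418 against at most 4249 elsewhere. A barcode was seen in more than 1 library for 3400 nuclei (2.97%), with 3 to 27 shared by each of the 120 pairs of libraries.

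The members differed in their distribution over the cell classes, though some were alike. Levels are CPM, scaled by trimmed mean of M values (TMM) between mice, given as mean ± SD over mice, and compared between classes for 1 gene at a time. They are a description, and how much of the level in the lowest classes came from free RNA was not tested.

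Among the opioid receptors, Oprm1 was highest in the Sst class of somatostatin interneurons at 18 ± 5.72 CPM (n = 16), 3.82-fold the median class. Oprm1 had only 22 to 38 UMIs per group of 4 mice in that class. Its order was loose: only 7 of the 16 other tested classes lay below Sst in every mouse, and Lamp5 (14.2 ± 13.2), L6 corticothalamic (CT; 11.2 ± 5.22) and near-projecting L5/6 NP neurons (10.8 ± 6.61) overlapped it. Oprk1 was concentrated in the Rxfp1-led class at 48.6 ± 25.3 CPM, 35.8-fold the median class and above all 16 other classes in every mouse. The next tested class, Sncg, had 7.21 ± 8.08 CPM of Oprk1, while the Prkcd-led class, which had enough nuclei in only 6 mice, had 45.6 ± 37.8 CPM. Oprd1 was highest in parvalbumin (Pvalb) interneurons at 27.2 ± 13.9 CPM, 13.8-fold the median class and above 14 of the other 16 classes in every mouse. Sst interneurons followed with 12 ± 5.63 CPM of Oprd1. Oprl1 was spread most evenly of the 4, from 9.35 ± 11.1 CPM in Sncg to 32.5 ± 20.9 CPM in oligodendrocyte progenitors (OPC), and the first place was not settled, since OPC lay above Sst (31.6 ± 10.0 CPM) in 5 of 16 mice. In OPC, Oprl1 had only 15 to 25 UMIs per group of 4 mice.

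Crhr1 marked layer 5 IT neurons, with 57.7 ± 10.6 CPM, above all 16 other classes in every mouse and 9.29-fold the median class. The Rxfp1-led class (24.1 ± 8.68 CPM), L5 extratelencephalic neurons (L5 ET; 21.8 ± 4.18) and L2/3 IT neurons (20.1 ± 4.67) came next and did not separate beyond their spread, whereas L6 CT neurons had 4.98 ± 2.13 CPM of Crhr1. Npy1r was highest in Vip interneurons at 160 ± 45.3 CPM and in Sncg interneurons at 156 ± 80.5 CPM, and each of these was the higher one in 8 of 16 mice. L2/3 IT neurons had 67.7 ± 12.2 CPM of Npy1r and L5 IT neurons 57.4 ± 10.6 CPM, and Pvalb neurons were lowest at 11.1 ± 5.59 CPM.

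The CB1 receptor gene had its highest levels in interneurons outside the Pvalb class, while 52.8% of its UMIs lay in the more numerous glutamatergic nuclei and 24.6% in GABAergic nuclei. Cnr1 reached 2572 ± 583 CPM in the Sncg class, the cholecystokinin-rich interneurons, which was 27.1-fold the median class and above all 16 others in every mouse. Vip (656 ± 126 CPM) and Lamp5 (362 ± 112 CPM) interneurons followed, and Pvalb neurons, at 64.8 ± 12.4 CPM, were among the lowest. Within glutamatergic classes Cnr1 ran from 43.8 ± 11.9 CPM in L6 CT to 186 ± 38.8 CPM in the Rxfp1-led class.

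Faah was a gene of glutamatergic neurons, with 83.9% of its UMIs in those classes, where 64.5% of the UMIs of all genes were found. It was highest in L2/3 IT neurons (185 ± 24.1 CPM), which lay above L5 IT neurons (169 ± 20) in 15 of 16 mice, and lowest in astrocytes (23.7 ± 6.67). Mgll showed the opposite order, with its maximum in astrocytes at 377 ± 50.6 CPM, above all 16 other classes in every mouse, followed by Lamp5 interneurons at 223 ± 39.0 CPM. The unnamed low-UMI nuclei had 321 ± 45.1 CPM of Mgll and held 37.5% of its UMIs against 15.6% of the UMIs of all genes. Dagla was the flattest of the 3 enzymes, from 13.8 ± 17.7 CPM in Sncg to 62.3 ± 13.7 CPM in L6 CT neurons, the latter above only 5 of 16 classes in every mouse.

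**Figure D1:**
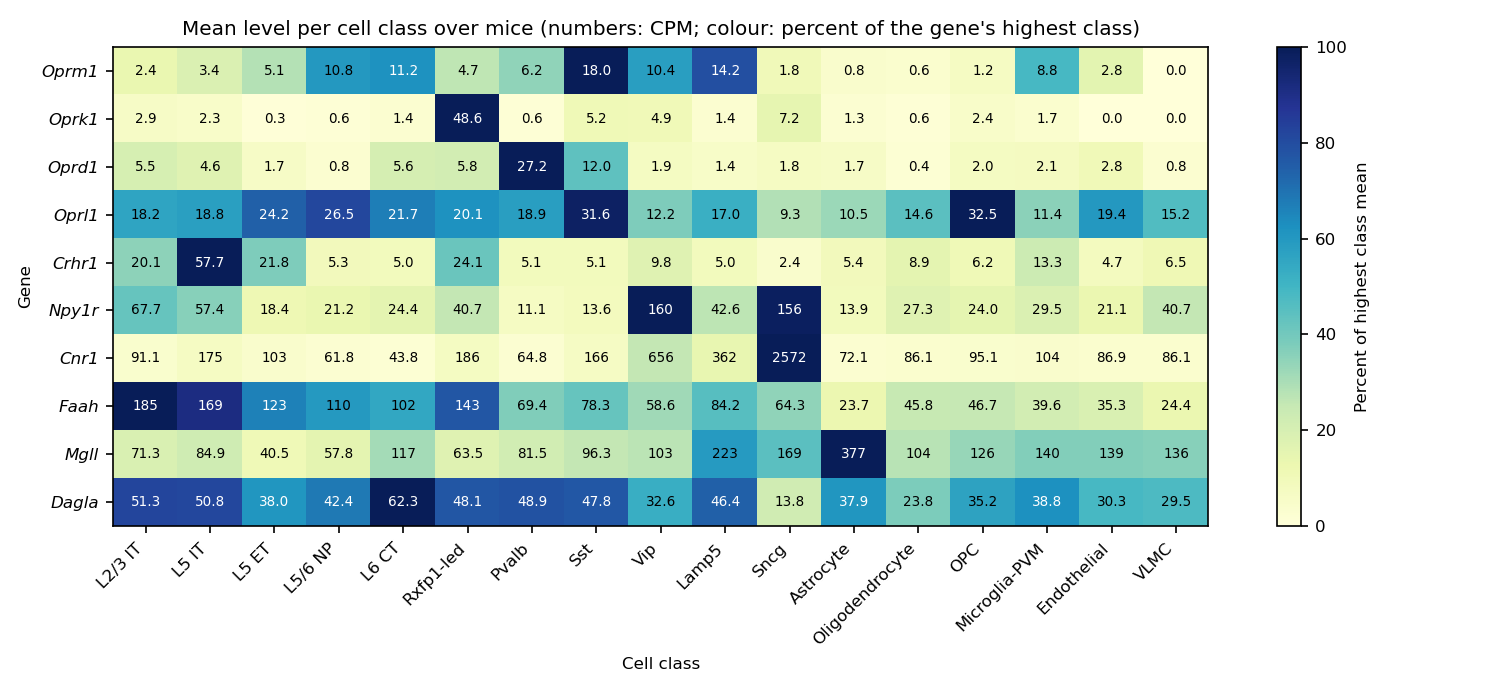
Mean CPM of each member (rows) in each cell class (columns) over mice, with the colour giving the percent of that gene's highest class. Cnr1 is darkest in Sncg (2572 CPM), Mgll in astrocytes (377 CPM), Faah in L2/3 IT (185 CPM), Crhr1 in L5 IT (57.7 CPM) and Oprk1 in the Rxfp1-led class (48.6 CPM).

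Other genes with a like order of class levels were picked by Pearson's r of log2(CPM + 1) over the 17 class means, among 12505 genes, which share libraries and depth, so r is only a description. The genes nearest to Cnr1 were Clnk (r = 0.89), Npy2r (0.87) and Frem1 (0.84). For Npy1r they included Naf1 (0.87) and the neuropeptide Y receptor gene Npy5r (0.85), for Crhr1 Fbxw7 (0.90), and for Faah Exd2 (0.97). Among pairs of members, Npy1r and Cnr1 had the highest r (0.77). Mgll ran with the astrocyte genes Dio2 (0.90) and Pax6 (0.87), Oprm1 with Bbs4 (0.90), Oprd1 with the glutamate receptor gene Gria1 (0.76), Oprl1 with Spon1 (0.78), Dagla with Drp2 (0.83) and Oprk1 with Slc41a2 (0.70).

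For the comparisons between groups, UMIs were summed per mouse and tested with edgeR's quasi-likelihood test, and a gene was called at a Benjamini-Hochberg adjusted p of at most 0.05 over all genes tested. In sums over all nuclei, fewer cells of a type and less RNA per cell cannot be told apart. The 8 contrasts share mice and are not independent of each other.

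None of the 10 members was called in any contrast over all nuclei: 0 of 80 tests passed in edgeR, 4 had an unadjusted p under 0.05, and DESeq2 gave 0 calls with 6 unadjusted. Over all genes, the percent called was 4.06 for 3xTg-AD alcohol minus WT control, 0.435 for 3xTg-AD control minus WT control, 0.0179 for WT alcohol minus WT control, 0.483 for 3xTg-AD alcohol minus 3xTg-AD control and 0.942 for 3xTg-AD alcohol minus WT alcohol. It was 3.28 for genotype averaged over alcohol, 3.3 for alcohol averaged over genotype and 0.0 for the interaction. With 10 members, 0 calls is near what these shares give.

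The member with the largest difference between 3xTg-AD alcohol and WT control mice was the delta opioid receptor gene. Oprd1 had 3.18, 3.75, 2.80 and 5.18 CPM in 3xTg-AD alcohol mice 4, 31, 33 and 34, and 8.32, 8.38, 5.47 and 4.09 CPM in WT control mice 26, 27, 28 and 36. Mouse 36 lay within the range of the 3xTg-AD alcohol mice and the other 3 WT controls above it. The 3xTg-AD controls had 7.46, 3.69, 5.84 and 4.69 CPM and WT alcohol mice 3.93, 5.79, 4.56 and 5.60 CPM. The log2 fold change was -0.82 ± 0.27 (SE; 95% interval -1.38 to -0.26) with an adjusted p of 0.0885, which missed the threshold. Without mouse 36 it was -1.0 with an adjusted p of 0.0384. WT control mice 26 and 27, the highest in Oprd1, were also high in Gm42418, and without the 3 mice highest in Gm42418 the Oprd1 difference was -0.36 with an adjusted p of 0.498, and with the ribosomal RNA-associated share as a covariate it was -0.31 with 0.567.

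The other 3 opioid receptors and the other 6 members differed by less in the same contrast. The 95% intervals were -0.94 to 0.01 for Oprm1, -0.33 to 0.24 for Oprl1, -0.76 to 0.16 for Crhr1 and -0.48 to 0.25 for Npy1r on the log2 scale. For the endocannabinoid genes they were -0.14 to 0.36 for Cnr1, -0.49 to 0.07 for Faah, -0.47 to 0.17 for Mgll and -0.43 to 0.17 for Dagla. Oprk1, with 23 to 157 UMIs per mouse, had the widest interval, -0.15 to 1.51. These bounds are the size of difference the data leave possible, and a missed threshold does not show that the groups were alike. The median log2 fold change of the 10 members was -0.14 beside 0.00 for all genes.

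The other unadjusted p-values under 0.05 over all nuclei were those of Oprd1 for alcohol averaged over genotype (-0.48, adjusted p = 0.155), Faah in 3xTg-AD alcohol minus 3xTg-AD control (-0.29, adjusted p = 0.379) and Cnr1 in WT alcohol minus WT control. In WT alcohol mice 6, 7, 17 and 18 Cnr1 had 193, 172, 138 and 157 CPM over all nuclei, and in WT control mice 111, 123, 165 and 133 CPM. The groups overlapped in the middle. The difference was 0.30 ± 0.12 on the log2 scale (95% interval 0.05 to 0.56) with an adjusted p of 0.299.

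**Figure D2:**
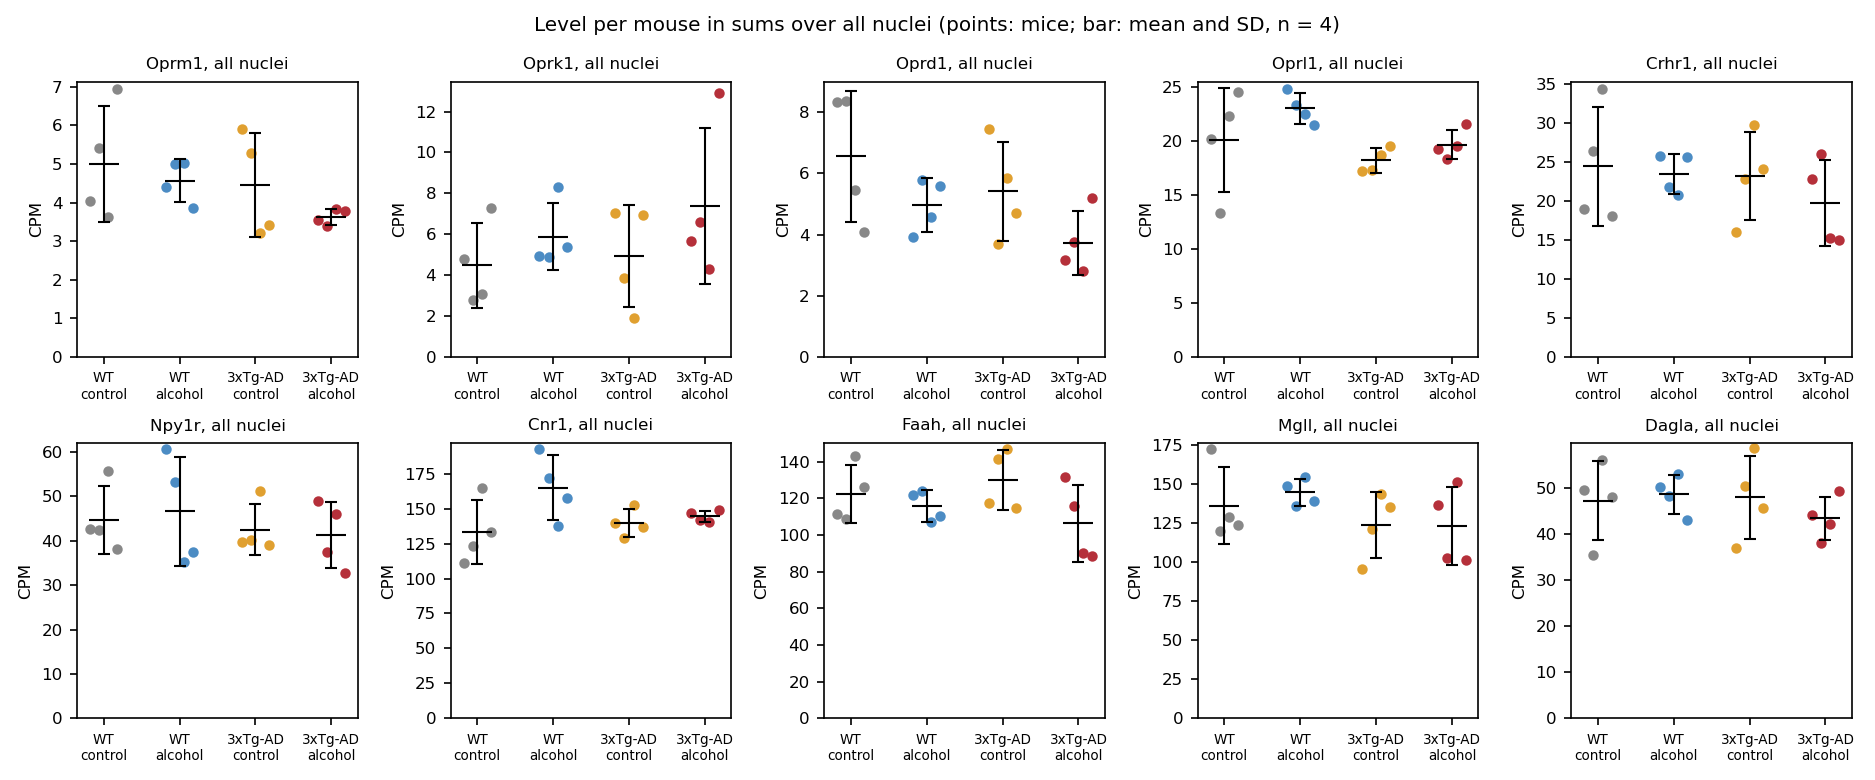
CPM of the 10 members in sums over all nuclei, with a point for each mouse and the mean and SD of each group of 4. The groups of every member overlap between 3xTg-AD alcohol and WT control, including Oprd1, where WT control mouse 36 (4.09 CPM) lies within the 3xTg-AD alcohol range.

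**Figure D3:**
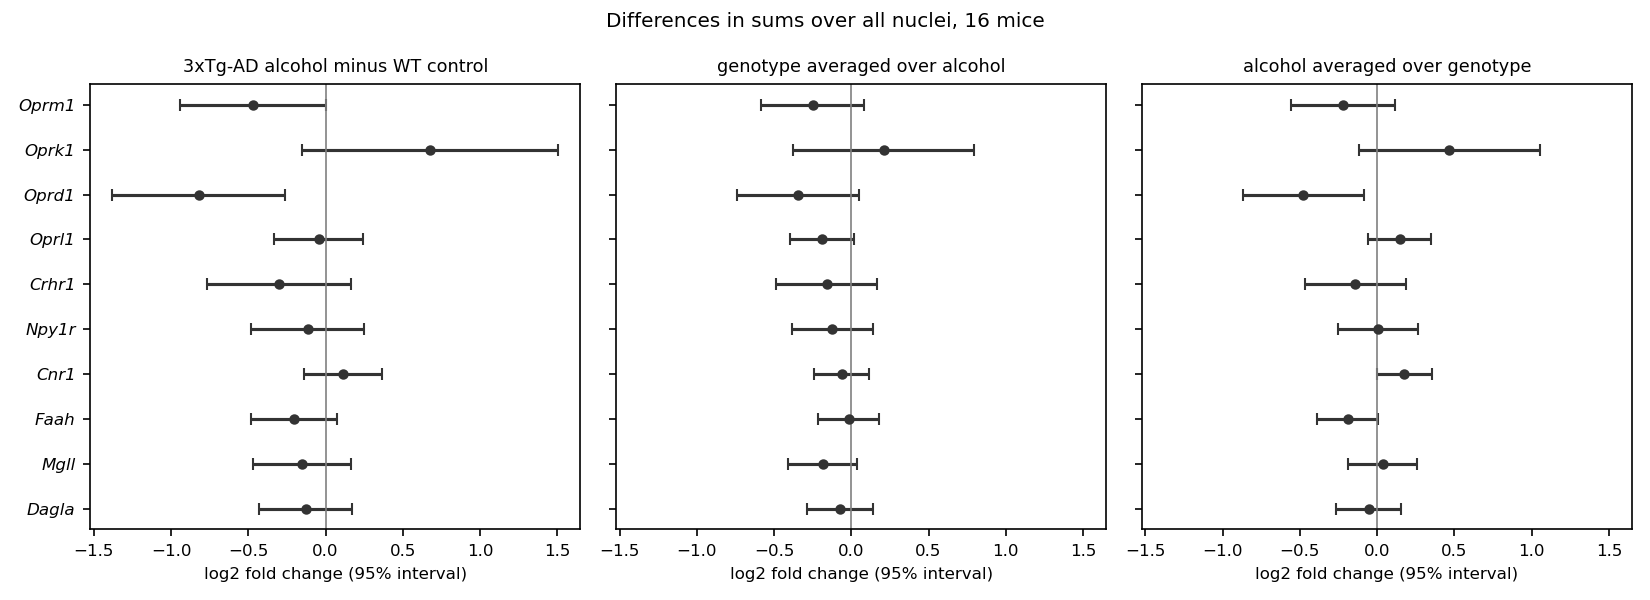
Log2 fold changes of the 10 members in sums over all nuclei (points) with 95% intervals (bars), from the edgeR fit over 16 mice. The interval of Oprd1 in 3xTg-AD alcohol minus WT control runs from -1.38 to -0.26, and the intervals of the other 9 members in that contrast include 0.

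Within cell classes, the members were tested where their counts were high enough: Mgll in 16 of the 17 classes, Cnr1 in 15, Faah in 12, Dagla in 9, Npy1r in 8, Oprl1 in 7, Crhr1 in 4, Oprd1 in 3, and Oprm1 and Oprk1 in 1 each. Together with the glutamatergic and GABAergic sums this made 95 tests per contrast. No member was called in any of the 760 tests by edgeR, and 77 had an unadjusted p under 0.05. DESeq2 was run without the filter on low counts, on 187 member tests per contrast in place of 95. It called 2 and gave 66 unadjusted, so the counts of the 2 methods are not over the same tests. The percent called over all genes was 1.43 for 3xTg-AD alcohol minus WT control, 0.223 for 3xTg-AD control minus WT control, 0.0238 for WT alcohol minus WT control, 0.2 for 3xTg-AD alcohol minus 3xTg-AD control and 0.473 for 3xTg-AD alcohol minus WT alcohol. It was 1.36 for genotype, 1.08 for alcohol and 0.000699 for the interaction. For 3xTg-AD alcohol minus WT control, 20 of the 95 tests (21.1%) had an unadjusted p under 0.05 beside 13.5% of the tests of all genes, whereas over all nuclei it was 1 of the 10 members (10.0%) beside 20.1% of all genes. For 3xTg-AD control minus WT control in classes, 2 of the 95 tests (2.11%) stood beside 6.73%. The tests of 1 gene in several classes share mice, and the glutamatergic and GABAergic sums also hold the nuclei of their subclasses.

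Both DESeq2 calls were Cnr1 in the GABAergic sum. Its level there was 538, 444, 368 and 355 CPM in WT alcohol mice 6, 7, 17 and 18, and 270, 169, 332 and 317 CPM in WT control mice 26, 27, 28 and 36. It was 398, 304, 346 and 431 CPM in 3xTg-AD alcohol mice and 262, 279, 362 and 294 CPM in 3xTg-AD controls. All WT alcohol mice lay above all WT controls, while the 3xTg-AD groups overlapped. Alcohol averaged over genotype gave a log2 fold change of 0.47 ± 0.13 (1.38-fold; 95% interval 0.20 to 0.73) with an adjusted p of 0.0786 in edgeR and 0.0456 in DESeq2.

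In mouse 27, the lowest at 169 CPM, 74.9% of the GABAergic nuclei were Meis2 nuclei. The Meis2 class had 113 ± 77.9 CPM of Cnr1 over the 10 mice with enough of its nuclei. Without mouse 27 the difference was 0.37 with an adjusted p of 0.061. The Sncg class, highest in Cnr1, made up 4.99, 5.44, 3.74 and 3.78% of the GABAergic nuclei in WT alcohol mice and 3.12, 1.11, 4.62 and 3.84% in WT controls, so these shares overlapped. In 3xTg-AD mice the Sncg share was 5.88, 5.24, 4.15 and 6.06% with alcohol and 4.07, 5.23, 4.12 and 6.63% without. Mean shares in WT alcohol and WT control mice were 4.49 and 3.17% for Sncg, 16.9 and 11.9% for Vip and 13.3 and 9.44% for Lamp5. In 3xTg-AD mice with and without alcohol they were 5.33 and 5.01% for Sncg, 15.3 and 16.5% for Vip and 11.6 and 8.76% for Lamp5. The part of these shares in the difference was not tested. Without the 3 mice high in Gm42418 it was 0.31 with an adjusted p of 0.120, and with the ribosomal RNA-associated share as a covariate 0.33 with 0.306. Within the Sncg class Cnr1 had 3855, 3334, 3274 and 2721 CPM in WT alcohol mice and 2057, 2091, 2317 and 2920 CPM in WT controls, which overlapped at mouse 36. In 3xTg-AD mice the Sncg values were 2694, 2176, 2254 and 2911 CPM with alcohol and 2093, 1717, 2715 and 2025 CPM without.

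Npy1r in the Sncg class had the smallest unadjusted p of the member tests in classes. It had 243, 124, 191 and 309 CPM in 3xTg-AD alcohol mice, 140, 60.5, 171 and 149 CPM in 3xTg-AD controls, 218, 250, 193 and 150 CPM in WT alcohol mice and 0, 38.0, 155 and 111 CPM in WT controls. These sums were thin, at 0 to 27 UMIs per mouse. Alcohol averaged over genotype gave 0.87 ± 0.26 on the log2 scale with an adjusted p of 0.191, and without WT control mouse 28 it was 1.16 with an adjusted p of 0.0366. With the ribosomal RNA-associated share as a covariate it was 0.56 with an adjusted p of 0.745, and in DESeq2 the adjusted p was 0.997.

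Mgll in endothelial cells was 124, 18.8, 82.4 and 54.0 CPM in 3xTg-AD alcohol mice and 157, 53.7, 170 and 17.2 CPM in 3xTg-AD controls. It was 300.2, 165, 187 and 166 CPM in WT alcohol mice and 278, 105, 260 and 84.1 CPM in WT controls, so the genotypes overlapped. The genotype difference was -1.22 ± 0.36 on the log2 scale with an adjusted p of 0.0735 in edgeR and 0.464 in DESeq2, from 1 to 22 UMIs per mouse. Whether it was called depended on single mice: without any 1 of 3xTg-AD alcohol mouse 4, 3xTg-AD control mice 12 and 14 or WT control mice 27 and 36 the adjusted p was between 0.0304 and 0.0457. Over the 14 fits without 1 mouse that gave a value, the difference ran from -1.43 to -0.98, with adjusted p-values up to 0.211. Of the endothelial nuclei, 31.2% also carried markers of another broad class, and their part in the difference was not tested. In astrocytes, the class highest in Mgll, the groups overlapped, from 294 to 460 CPM in 3xTg-AD alcohol mice and from 323 to 372 CPM in WT controls.

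The remaining members also missed the threshold. Each is given in the class and contrast where its unadjusted p was smallest, so these values are picked extremes. Faah in L6 CT neurons differed by -0.31 ± 0.11 for alcohol (adjusted p = 0.168), Dagla in L5 ET neurons by -0.38 ± 0.14 for genotype (adjusted p = 0.274) and Oprk1 in the Rxfp1-led class by 0.73 ± 0.28 for alcohol (adjusted p = 0.308), each on the log2 scale. Oprk1 was 120 CPM in 3xTg-AD alcohol mouse 34 and 94.5 CPM in WT alcohol mouse 17, while the other 6 alcohol mice had 39.9 to 53.0 CPM and the 8 controls 20.9 to 54.8 CPM. Oprd1 in L5 IT neurons was 2.34 to 4.88 CPM in 3xTg-AD alcohol mice and 5.19 to 8.25 CPM in WT controls, with a log2 fold change of -0.89 ± 0.32 and an adjusted p of 0.151. With the ribosomal RNA-associated share as a covariate that difference was -0.52 (adjusted p = 0.567). Crhr1 in L2/3 IT neurons was 13.2 to 20.8 CPM in 3xTg-AD alcohol mice and 22.6 to 26.2 CPM in WT alcohol mice, with -0.52 ± 0.19 and an adjusted p of 0.266. Oprl1 in the GABAergic sum differed by -0.58 ± 0.23 in that contrast (adjusted p = 0.443), and Oprm1 in L6 CT neurons had its smallest p in the interaction, at -1.21 ± 0.55 (adjusted p = 0.999).

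**Figure D4:**
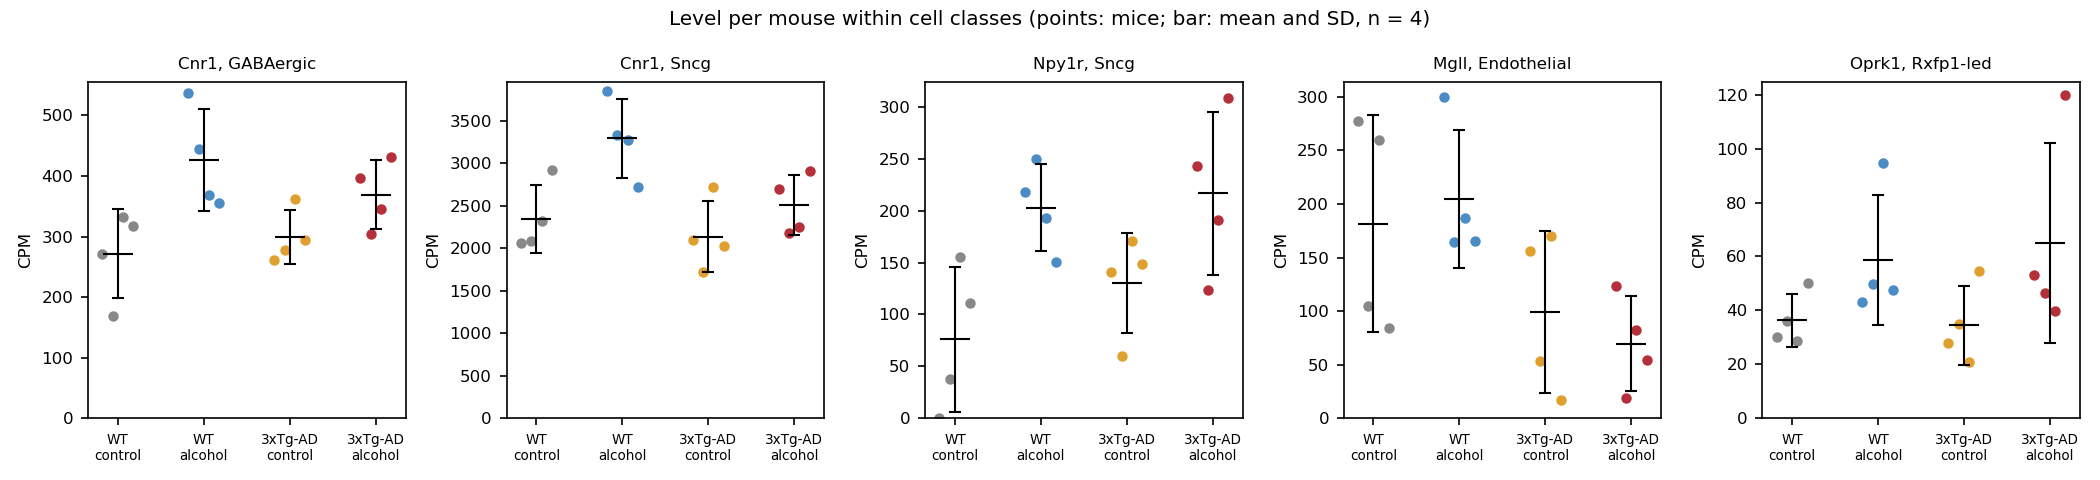
CPM per mouse of members within cell classes, with a point for each mouse and the mean and SD of each group of 4. Cnr1 in the GABAergic sum lies at 355 to 538 CPM in WT alcohol and 169 to 332 CPM in WT control mice, and the highest points of Oprk1 in the Rxfp1-led class are 3xTg-AD alcohol mouse 34 (120 CPM) and WT alcohol mouse 17 (94.5 CPM).

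The ligands and partners of the members were examined as lists chosen by function. Earlier results of these data were known when the lists were chosen, so their called shares are only a description. The opioid ligand and processing list had 9 genes, all tested, and the neuropeptide Y list 4 genes in the table of 7. Of the CRF list, 2 of 6 genes were tested, of the endocannabinoid list 14 of 16, and of the Gi/o signaling and receptor regulator list 19 of 21. No gene of the CRF and Gi/o lists was called in any contrast or class, in 9 and 241 class tests per contrast, beside at most 1.43% of the class tests of all genes and at most 4.06% over all nuclei. The median log2 fold change of the opioid list in 3xTg-AD alcohol minus WT control over all nuclei was -0.27 beside 0.00 for all genes. Over its 93 tests in the 19 class sums the median had the other sign, 0.06. In 3xTg-AD alcohol minus WT control, 6 of the 93 class tests of the opioid list were called (5 lower, all Pcsk1, and 1 higher, Pnoc), and 4 of 157 of the endocannabinoid list (all higher, all Cnrip1), beside 1.43% of all genes. These calls came from 2 of the 9 opioid genes and 1 of the 14 endocannabinoid genes tested. The glutamatergic and GABAergic sums hold the nuclei of their subclasses, so calls of 1 gene in a sum and in its subclass share UMIs. For alcohol averaged over genotype, 2 of the 28 class tests of the neuropeptide Y list were called higher (both Npy), beside 1.08%. Pdyn was called for genotype, and Penk and Crh in no contrast.

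Cnrip1, the gene of a protein that binds the tail of the CB1 receptor, was higher in 3xTg-AD alcohol than in WT control mice. In L2/3 IT neurons it had 158, 160, 160 and 172 CPM in 3xTg-AD alcohol mice and 91.5, 119, 120 and 108 CPM in WT controls, with no overlap. The 3xTg-AD controls had 119, 109, 131 and 113 CPM and WT alcohol mice 109, 126, 131 and 152 CPM, both below every 3xTg-AD alcohol mouse. Cnrip1 thus rose by 0.55 ± 0.12 on the log2 scale (1.47-fold; adjusted p = 0.00967) in L2/3 IT neurons of 3xTg-AD alcohol against WT control mice. In the glutamatergic sum it rose by 0.55 ± 0.11 (adjusted p = 0.0110), and in L2/3 IT neurons and the glutamatergic sum it was called in all alternatives tried. It was also called in L5 IT neurons (0.58 ± 0.12, adjusted p = 0.0139), lost without WT control mouse 26 (0.49, adjusted p = 0.0591) and with the covariate (0.50, adjusted p = 0.0586), and in the GABAergic sum (0.47 ± 0.12, adjusted p = 0.0439), lost in 18 of 24 alternatives, over all of which the difference ran from 0.38 to 0.51 with adjusted p-values up to 0.168, among them the fits without any 1 of 14 mice (all but 3xTg-AD control 12 and WT control 36). Over all nuclei Cnrip1 rose by 0.49 ± 0.10 (adjusted p = 0.0152), a call lost with the ribosomal RNA-associated share as a covariate (0.39, adjusted p = 0.0693) and with the 2 groups alone in the fit (0.48, adjusted p = 0.0607). The difference from WT alcohol mice in L2/3 IT neurons was 0.32 ± 0.11 and missed the threshold (adjusted p = 0.235). In no sum was Cnrip1 called between 3xTg-AD alcohol mice and either 3xTg-AD controls or WT alcohol mice, or in the interaction. Alcohol averaged over genotype was called for Cnrip1 over all nuclei too, at 0.28 ± 0.07 (adjusted p = 0.0446), but leaving out 1 of 10 mice (3xTg-AD alcohol 4, 31, 33 or 34, WT alcohol 7, 17 or 18, 3xTg-AD control 13 or 21, or WT control 26) ended the call, with adjusted p-values of 0.0562 to 0.111, as did the covariate (0.22, adjusted p = 0.136) and leaving out the 3 mice high in Gm42418 (0.25, adjusted p = 0.0502). The alcohol effect was called for Cnrip1 in the glutamatergic sum, L2/3 IT and L5 IT as well (0.34 in each), and each of these calls was lost with the covariate (0.29 to 0.30 on the log2 scale, adjusted p = 0.0545 to 0.103) and without 3xTg-AD alcohol mouse 33 or 34, WT alcohol mouse 17 or 18 or 3xTg-AD control mouse 13 or 21. WT control mouse 26 did the same in L2/3 IT and L5 IT, and 3xTg-AD alcohol 4 and 31, WT alcohol 7, WT control 36 and a stricter class margin (0.0638) in L5 IT.

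Pcsk1, the prohormone convertase that cleaves opioid precursors, was lower in 3xTg-AD alcohol than in WT control mice. Over all nuclei it had 28.5, 23, 24.3 and 18.8 CPM in 3xTg-AD alcohol mice and 36.4, 49.2, 37.9 and 31.1 CPM in WT controls, with no overlap. The 3xTg-AD controls (22.9 to 36 CPM) and WT alcohol mice (25.9 to 33.3 CPM) overlapped both. In no sum was Pcsk1 called between 3xTg-AD alcohol mice and either of these groups, or in the interaction. Pcsk1 fell by 0.71 on the log2 scale (SE 0.16; adjusted p = 0.0210), and it was also called in the glutamatergic (-0.67) and GABAergic (-0.96) sums and in L2/3 IT (-0.87), L5 IT (-0.68) and Sst (-1.62) neurons. Over all nuclei the call was lost without WT control mouse 27 or 3xTg-AD alcohol mouse 31, 33 or 34 (adjusted p = 0.0534 to 0.0642), without the 3 mice high in Gm42418 (-0.54, adjusted p = 0.0882) and with the covariate (-0.55, adjusted p = 0.100). All 5 class calls of Pcsk1 were lost with the covariate (adjusted p = 0.0612 to 0.234), where the differences were -0.52 in the glutamatergic sum, -0.77 in the GABAergic sum, -0.70 in L2/3 IT, -0.67 in L5 IT and -1.51 in Sst. All but that in L5 IT were lost without the 3 mice high in Gm42418 (0.0887 to 0.307), and those in the GABAergic sum (0.0806) and Sst (0.147) in DESeq2. With the 2 groups alone in the fit, those in the GABAergic sum (0.126) and L2/3 IT (0.0624) were lost. Each was lost without 3xTg-AD alcohol mouse 31 or 34, and all but that in Sst without 3xTg-AD alcohol mouse 33 or WT control mouse 27. Other single mice ended the call in the GABAergic sum (3xTg-AD alcohol 4, WT alcohol 6, 7, 17 and 18, 3xTg-AD control 13 and 21), the glutamatergic sum (WT control 26), L5 IT (3xTg-AD alcohol 4 and WT control 36) and Sst (WT control 26 and 28). Without mouse 27 the GABAergic difference was -0.57 (adjusted p = 0.201). Without the 3 mice high in Gm42418 it was -0.51 in the GABAergic sum and -0.55 in L2/3 IT. Mouse 27, with 1148 Meis2 nuclei, was the highest WT control. The Meis2 class had 75.3 ± 58.3 CPM of Pcsk1 over the 10 mice with enough of its nuclei.

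Pdyn, the gene of the dynorphin precursor and the ligand of the kappa receptor, was a gene of Sst interneurons, at 99.8 ± 33 CPM and above all 16 other classes in every mouse. In Sst neurons it had 102, 64.8, 82.6 and 95.3 CPM in 3xTg-AD alcohol mice and 61.5, 52.4, 89.4 and 93.8 CPM in 3xTg-AD controls, against 162, 75.0, 143 and 146 CPM in WT alcohol mice and 93.7, 83.2, 145 and 106 CPM in WT controls. The genotypes overlapped at WT alcohol mouse 7 and WT control mice 26 and 27. Pdyn fell by 0.61 (SE 0.15; adjusted p = 0.0301) for genotype averaged over alcohol, a call that DESeq2 did not make (-0.59, adjusted p = 0.231) and that ended without 1 of 8 mice (WT alcohol 6, 17 or 18, 3xTg-AD control 12 or 13, WT control 28, or 3xTg-AD alcohol 31 or 33, with 0.0533 to 0.130). Over all nuclei it fell by 0.53 (SE 0.14; adjusted p = 0.0424), and in 11 of the 16 fits without 1 mouse that call was lost (WT alcohol 6 and 18, 3xTg-AD control 12, 13 and 21, WT control 26, 28 and 36, and 3xTg-AD alcohol 31, 33 and 34, with 0.0633 to 0.0947). Pdyn was also called lower in L5 IT neurons (-1.16 ± 0.30, adjusted p = 0.0416), the class where it was lowest, at 3.38 ± 1.76 CPM. That call was lost in DESeq2 (-1.17, adjusted p = 0.0703), with the covariate (-1.14, 0.0610), without the 3 mice high in Gm42418 (-0.99, 0.154) and without 1 of 10 mice (WT alcohol 6, 7 or 18, 3xTg-AD control 12, 13 or 14, WT control 26 or 36, or 3xTg-AD alcohol 31 or 33, with 0.0582 to 0.123).

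Npy, the ligand of the Y1 receptor, was highest in Lamp5 (886 ± 530 CPM) and Sst (417 ± 172 CPM) interneurons. Npy was called in no contrast in Lamp5. There it had 803 ± 415 CPM in 3xTg-AD alcohol mice, 473 ± 240 in 3xTg-AD controls, 1480 ± 594 in WT alcohol mice and 788 ± 317 in WT controls. In Sst neurons it had 602, 243, 559 and 413 CPM in 3xTg-AD alcohol mice against 229, 257, 243 and 272 CPM in 3xTg-AD controls, and 763, 504, 507 and 689 CPM in WT alcohol mice against 400, 231, 362 and 396 CPM in WT controls. The 4 WT alcohol mice lay above the 4 WT controls, and 3xTg-AD alcohol mouse 31 lay within the 3xTg-AD controls. For alcohol averaged over genotype Npy rose by 0.80 ± 0.15 on the log2 scale (1.74-fold; adjusted p = 0.00719) in Sst neurons. The call held without any single mouse, and was lost without the 3 mice high in Gm42418 (0.74, adjusted p = 0.0962) and with the covariate (0.78, adjusted p = 0.117). In Pvalb neurons Npy was called for alcohol as well (0.50 ± 0.12, adjusted p = 0.0347) and in WT alcohol against WT control mice (0.82 ± 0.17, adjusted p = 0.0271), at a level of 156 ± 39.6 CPM that was below that of microglia (200 ± 66.7 CPM) and oligodendrocytes (182 ± 64.3 CPM). How much of the Pvalb values was free RNA was not tested, and each Pvalb call was lost in 7 of the fits without 1 mouse, at adjusted p-values of 0.0521 to 0.126 for alcohol (3xTg-AD alcohol 4 and 33, 3xTg-AD control 12 and 13, WT alcohol 17 and 18, WT control 36) and 0.0522 to 0.244 for the WT groups (WT alcohol 6, 7, 17 and 18, WT control 27, 28 and 36). Both Pvalb calls were lost with a stricter class margin (0.46, adjusted p = 0.0622, and 0.79, adjusted p = 0.0662), and that of the WT groups with the covariate (0.87, adjusted p = 0.0531).

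Pnoc, the gene of the nociceptin precursor, was highest in Lamp5 interneurons at 88.6 ± 37.6 CPM. There it had 138, 94.8, 134 and 113 CPM in 3xTg-AD alcohol mice and 24.3, 21.7, 66.5 and 67.0 CPM in WT controls, from 2 to 27 UMIs per mouse over the 4 groups. The 3xTg-AD controls had 52.9 to 107 CPM and WT alcohol mice 90.7 to 137 CPM. Pnoc rose by 1.39 ± 0.35 on the log2 scale (adjusted p = 0.0307) in 3xTg-AD alcohol against WT control mice, and the call was lost without 3xTg-AD alcohol mouse 4, 33 or 34 or WT control mouse 26 or 27 (adjusted p = 0.0543 to 0.260), in DESeq2 (1.41, adjusted p = 0.114), without the 3 mice high in Gm42418 (0.80, adjusted p = 0.604) and with the covariate (1.04, adjusted p = 0.426). The alcohol effect averaged over genotype, 0.94 ± 0.24 (adjusted p = 0.0394), was lost without 1 of 10 mice (3xTg-AD alcohol 4, 33 or 34, WT alcohol 6 or 7, 3xTg-AD control 13, 14 or 21, or WT control 26 or 27, with 0.0518 to 0.175), and also in DESeq2 (0.95, adjusted p = 0.0903), with no filter on low counts (0.99, 0.0555), with a stricter class margin (0.88, 0.0742), without the 3 mice (0.75, 0.311) and with the covariate (0.72, 0.384).

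Penk, the enkephalin precursor gene, and Crh, the CRF gene, were both highest in Vip interneurons, at 113 ± 40.6 and 90.3 ± 31.8 CPM, and passed no test. In Vip neurons Crh had 75.2, 170, 118 and 111 CPM in 3xTg-AD alcohol mice, 74.4, 56.4, 94.2 and 42.3 CPM in 3xTg-AD controls, 93.0, 118, 100.2 and 115 CPM in WT alcohol mice and 70.2, 50.5, 76.4 and 81.1 CPM in WT controls. Penk in Vip neurons was 55.4 to 118 CPM in 3xTg-AD alcohol and 40.6 to 177 CPM in WT control mice.

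The ribosomal RNA-associated transcripts differed between the same groups. They took 0.317 to 0.458% of UMIs in 3xTg-AD alcohol mice, 0.501 to 2.06% in 3xTg-AD controls, 0.409 to 0.551% in WT alcohol mice and 0.537 to 3.31% in WT controls, and 1 of them, AY036118, was called lower in 16 of the 19 class sums in 3xTg-AD alcohol against WT control mice. In edgeR, Gm42418 was called lower over all nuclei for alcohol averaged over genotype (-1.93 ± 0.50 on the log2 scale, adjusted p = 0.0494). The shares did not overlap between 3xTg-AD alcohol and WT control mice, so the covariate cannot tell the share from the group. The fits without the 3 mice keep only WT control mice 28 and 36. The part of these transcripts in the ligand and Cnrip1 calls was not tested beyond these fits, and a call lost in them does not separate the 2.

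**Figure D5:**
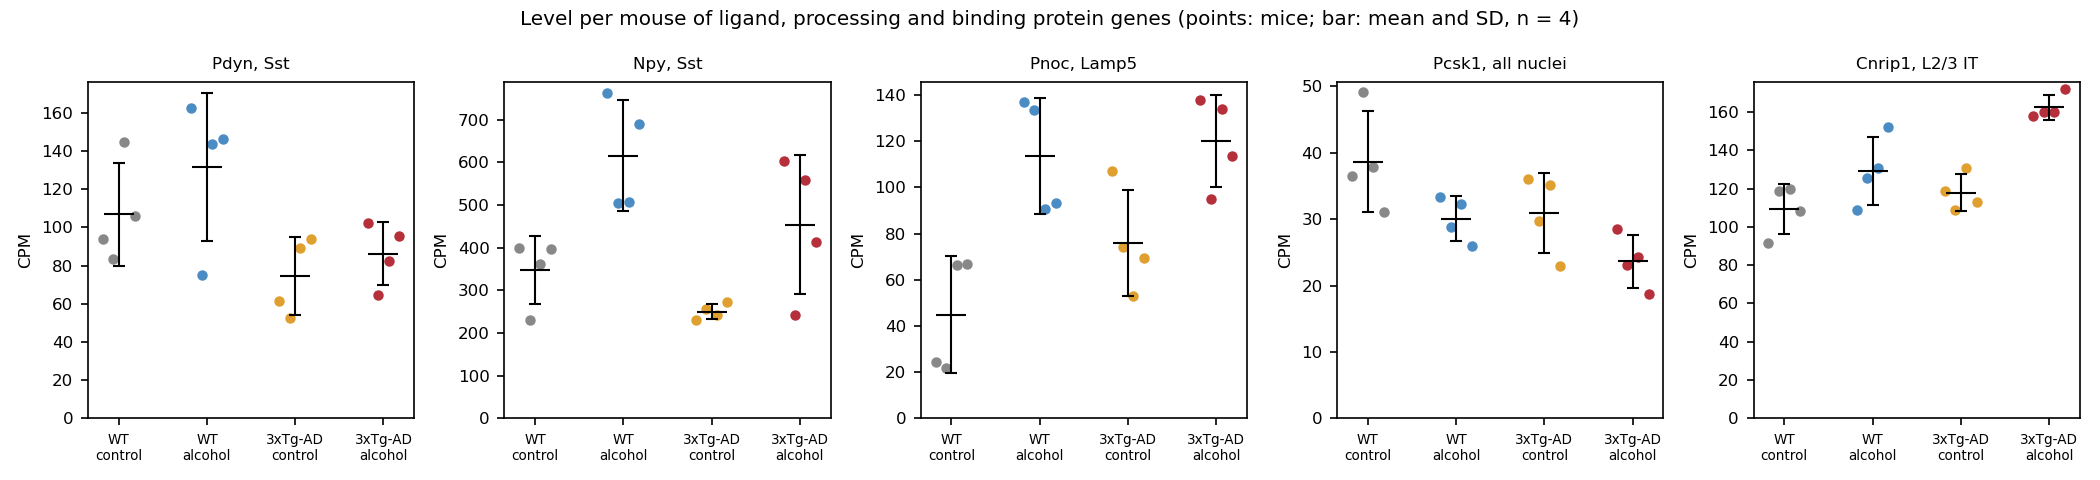
CPM per mouse of ligand, processing and binding protein genes, with a point for each mouse and the mean and SD of each group of 4. In L2/3 IT neurons the 3xTg-AD alcohol mice lie at 158 to 172 CPM of Cnrip1, above the WT controls at 91.5 to 120 CPM, and in Sst neurons the WT alcohol mice lie at 504 to 763 CPM of Npy, above the WT controls at 231 to 400 CPM.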

How the data were processed

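The deposited table holds raw UMI counts per gene and nucleus, made by the authors from 10x libraries with Cell Ranger 6.1.1 (STAR, mm10, per the submitters' notes). Whether intronic reads were counted is not given in the sources used here. All 114512 nuclei of the table were used, with no doublet caller: nuclei with markers of more than 1 broad class were kept and left out only as an alternative. Keeping only nuclei with 500 or more genes and no more than 5% of counts from mitochondria left 113008. Each mouse was assigned to its group from the labels. No annotation of nuclei was used, so classes were rebuilt: nuclei rich in listed markers seeded each class, and a nucleus went to the class of highest multinomial likelihood, over genes that excluded the members and the pathway lists, where it led by 3 log units. Differences from the study's class names may come from this. Rgs9 was both a marker of the Prkcd-led class (built from striatal markers) and in the Gi/o list.

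Counts were summed per mouse over all nuclei or per class (at least 10 nuclei in a mouse and 3 such mice per group), filtered with filterByExpr, scaled with TMM and tested with edgeR 4.0.16 (limma 3.58.1, R 4.3.3), glmQLFit robust, fitted once to the 16 mice with 1 coefficient per group. Adjustment was by Benjamini-Hochberg over all genes within a sum and contrast, and a threshold of 0.05 was used. Intervals are 95% and come from the same fit. Alternatives were DESeq2 1.42.0, RLE size factors, no filter on low counts, only the groups of a contrast, a stricter class margin, the nuclei filters above, the ribosomal RNA-associated share as a covariate, and leaving out each mouse or the 3 mice highest in Gm42418. The code was tested on simulated data. No per-sample column was left unused. The members and lists were chosen with earlier results of these data known. Named were the 10 members, the ligand genes Pdyn, Penk, Pnoc, Crh and Npy, genes of the lists that were called, and for each member its nearest genes by Pearson's r.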

Additional observations from a re-analysis of the deposited data

Results flagged for a closer look

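In 15 of 232 groups of 4 mice, 1 mouse lay far from the other 3 by Dixon's test, beside the 5% of groups that chance flags. The values that stood apart above the other mice were Oprk1 in the Rxfp1-led class in a 3xTg-AD alcohol mouse (120 CPM) and in a WT alcohol mouse (94.5 CPM), Oprk1 over all nuclei in a WT alcohol mouse (8.31 CPM), Npy1r over all nuclei in a 3xTg-AD control mouse (51.2 CPM), Oprl1 in OPC in a WT alcohol mouse (75.2 CPM), Faah in L6 CT in a WT alcohol mouse (103 CPM), and Mgll in endothelial cells in a WT alcohol mouse (300.2 CPM) and in microglia in a WT control mouse (218 CPM). Those below the other mice were Mgll in microglia in a 3xTg-AD control mouse (72.0 CPM), Oprl1 in the GABAergic sum in a WT alcohol mouse (23 CPM) and Pdyn over all nuclei in a WT control mouse (6.40 CPM). Among partners, Cnrip1 was high in 1 3xTg-AD alcohol mouse in L2/3 IT (172 CPM) and in 1 WT alcohol mouse in Lamp5 (196 CPM), and Pcsk1 in the GABAergic sum was high in 1 3xTg-AD alcohol mouse (25.0 CPM) and in WT control mouse 27 (61.2 CPM), the mouse with most Meis2 nuclei. None of the 105 interaction tests of members was called.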

How the results depend on the processing

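No paired analysis was possible because each mouse number occurs in 1 group only. Without 1 mouse, the count of member calls over all nuclei ran from 0 to 1 for 3xTg-AD alcohol minus WT control (Oprd1 without WT control mouse 36, adjusted p = 0.0384) and for genotype (Oprl1 without WT control mouse 27, 0.0489). In classes it ran from 0 to 1 for alcohol (Npy1r in Sncg without WT control mouse 28, 0.0366) and for genotype (Mgll in endothelial cells without 5 of the mice, 0.0304 to 0.0457), and was 0 in the other contrasts. DESeq2 gave 1 call each for alcohol and for WT alcohol minus WT control (Cnr1 in the GABAergic sum, 0.0456 and 0.0476). No filter on low counts gave 1 for alcohol (Oprk1 in the Rxfp1-led class, 0.0365), and the covariate gave 2 for genotype (Crhr1 in L2/3 IT, 0.0409, and Mgll in microglia, 0.0339). The cause was not tested. For 3xTg-AD alcohol minus WT control over all nuclei, Cnr1 turned from 0.11 to -0.027 with the covariate and -0.046 without the 3 mice high in Gm42418. Without 1 mouse, Npy1r ran from -0.21 to 0.0088 (above 0 without WT control mouse 28) and Oprl1 from -0.19 to 0.067 (above 0 without WT control mouse 28 or 36), none passing the threshold. The highest-class levels of the 10 members moved by less than 1 SD in all 5 alternatives run. Thin counts limit Oprm1, Oprk1 and Oprd1, with 39 to 102, 23 to 157 and 44 to 103 UMIs per mouse.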
